A study of Gallus gallus with 20 samples.

Results

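Interferon regulatory factors (IRFs), the cytokine-activated factor STAT3 and the suppressors of cytokine signalling SOCS1 and SOCS3 were followed in chicken macrophages after exposure to Salmonella endotoxin. All probe sets whose only annotated gene was IRF1, IRF2, IRF4, IRF7, IRF8, IRF10, STAT3, SOCS1 or SOCS3 were taken, giving 15 probe sets for 9 genes out of 38439 probe sets and 13782 singly named genes on the array. IRF2 and STAT3 each had 4 probe sets and every other gene had 1. The current RefSeq gene table gives the same symbol for the transcripts of 8 of these genes, whereas the transcript behind the IRF10 probe set is now named IRF9 with IRF10 as a synonym, so the array name is kept here and the gene's role depends on which name holds.

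The tested cells were HD11 macrophages given endotoxin of Salmonella typhimurium-798 at 1 μg/ml, collected 1, 2, 4 or 8 hours later (hours post stimulation, hps). They were compared with vehicle-treated HD11 cells at 0 μg/ml, collected at the same times. HD11 is a virus-transformed chicken macrophage line, so all 20 arrays came from a single line and replications were repeat treatments of it. The methods for RNA describe samples pooled from 3 flasks and treatments on different days. Each time had 3 endotoxin arrays (replications 1, 2 and 3) and 2 vehicle arrays (replications 1 and 2), since replication 3 held no vehicle array.

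IRFs are transcription factors that bind interferon-response elements in DNA. In mammals, Toll-like receptors for bacterial products reach some of them through adaptor proteins and TRAF3, and the type I interferon that follows acts back on the cell through Janus kinases and STATs. SOCS proteins are induced by STATs and shut the same receptors down. Chickens lack IRF3, and IRF7 is regarded as taking its place.

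All levels are the authors' RMA values on the log2 scale. A probe set was called where its q value, the estimated share of false calls computed over all 38439 probe sets, was under 0.05 in limma's moderated test with replication as a term in the model. A difference of 1.00 on this scale is a 2-fold change, differences are given as endotoxin minus vehicle, and the fitted difference can depart slightly from that of the plain means because of the replication term. Array medians were between 5.25 and 5.33, and the level of one probe set cannot be set against that of another.

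Of a list of 13 macrophage genes 11 were measured, all with a median above that of the arrays, among them CEBPB at 13.32, SPI1 at 12.46 and CSF1R at 10.60. Of 6 measured T cell genes, CD4 (3.01), CD3E (3.73), ZAP70 (4.05) and CD8A (4.47) lay below it, while CD28 (10.41) and CD3D (6.68) lay above. So did 3 of 6 measured B cell genes, 3 of 6 fibroblast genes (FN1 at 11.23) and both measured erythroid genes, so lying above the median was not particular to macrophage genes. The vehicle arrays at 4 hps stood apart from the others. The 3′ minus 5′ signal difference of the actin control probe sets was -0.15 to 0.01 in the endotoxin arrays at 4 hps and up to 0.19 in those of other times (replication 3 at 1 hps), against 0.35 and 0.22 in the vehicle arrays at 4 hps and 0.00 to 0.11 in the other vehicle arrays. Endotoxin replication 3 at 1 and 2 hps also stood apart on the first principal component, with scores of 32.1 and 33.6, against 24.4 and 14.7 for the vehicle arrays at 4 hps and -21.9 to 12.1 for the other 16 arrays. The part of these departures in the results was not tested except where a value without those arrays is given.

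The fitted difference of every IRF, STAT3 and SOCS probe set was under 2-fold at each time. No probe set was called at 1, 2 or 8 hps, where 0.0364%, 0.0859% and 0.159% of all probe sets were called, and none was called in the mean of those 3 times, where 0.271% were. At 4 hps 2 of 15 (13.3%) were called, both higher, against 8.08% of all probe sets called in either direction and 4.95% called higher. They were an IRF2 probe set and the IRF10 probe set. At an unadjusted limma p under 0.05, 0, 2, 5 and 3 of the 15 passed at 1, 2, 4 and 8 hps. These are 0%, 13.3%, 33.3% and 20%, where 3.48%, 4.33%, 22.4% and 5.35% of all probe sets did. The 5 at 4 hps came from 4 genes. Regardless of sign, the median size of the difference was 0.05, 0.09, 0.17 and 0.08. Over all probe sets it was 0.07, 0.07, 0.12 and 0.07. The median difference of the 15 was 0.00, 0.01, 0.13 and 0.06 in the order of the times, beside medians of 0.00, 0.00, -0.02 and 0.00 over all probe sets. Of the 60 differences over the 4 times, 36 were above 0 and 24 below, they ran from -0.32 to 0.59, and the 95% interval lay within a 2-fold change in either direction for 59. The exception was an IRF2 probe set at 4 hps.

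**Figure D1:**
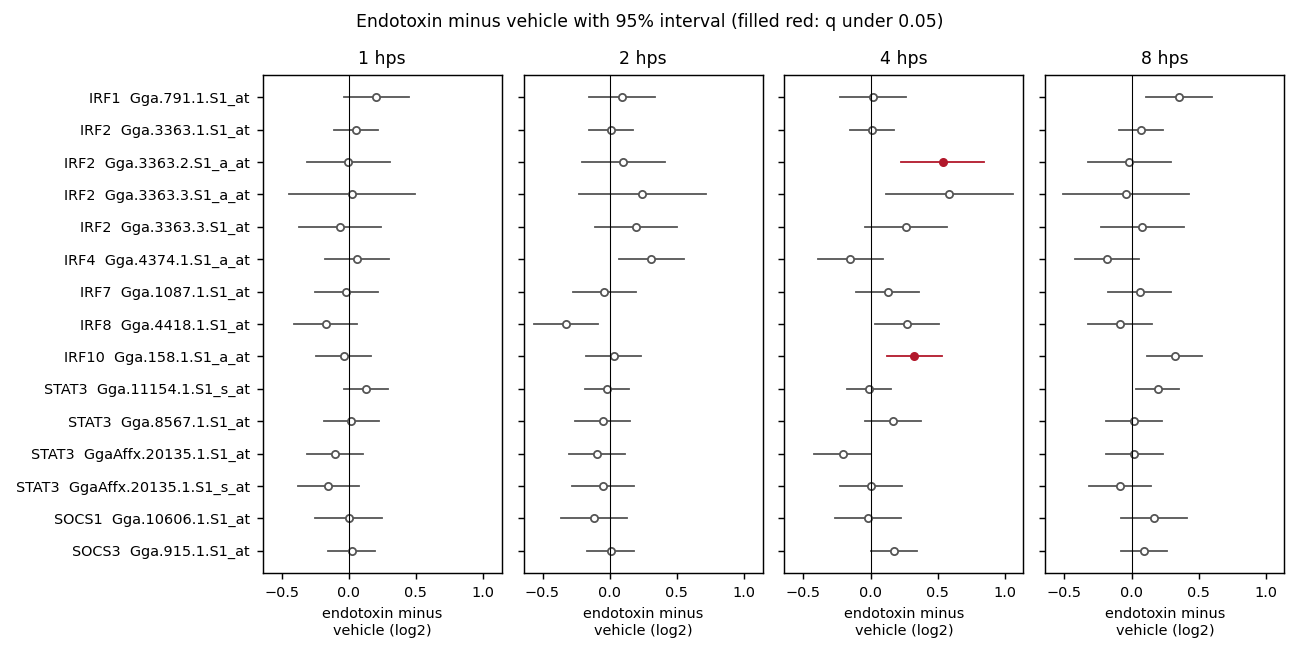
Endotoxin minus vehicle (log2, horizontal axis) for each of the 15 probe sets at 1, 2, 4 and 8 hps, with points for the fitted difference and lines for the 95% interval. The 2 filled red points at 4 hps, IRF2 at 0.54 and IRF10 at 0.32, are the ones called, and 10 of the 60 intervals leave out 0.

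IRF10, whose role is not settled by its name, did not overlap between treatments at 4 hps, a separation seen in 31.4% of all probe sets. Alone of the 9 genes, it also did not overlap the vehicle arrays of 1, 2 and 8 hps. Its level was 8.83, 8.65 and 8.59 at 1 hps, 8.94, 8.78 and 8.86 at 2 hps, 9.01, 9.12 and 9.02 at 4 hps and 9.03, 8.88 and 9.17 at 8 hps in endotoxin-stimulated cells (replications 1, 2 and 3). In vehicle-treated cells it was 8.67 and 8.78 at 1 hps, 8.82 and 8.83 at 2 hps, 8.72 and 8.73 at 4 hps and 8.68 and 8.72 at 8 hps. Every endotoxin array at 4 and 8 hps was thus above every vehicle array of any time, while at 1 and 2 hps the treatments overlapped. How many of all probe sets separate from vehicle arrays of other times was not counted. At 4 hps IRF10 averaged 9.05 ± 0.06 with endotoxin (SD, n = 3) and 8.72 ± 0.00 with vehicle (SD, n = 2), a fitted difference of 0.32 (SE 0.10, 1.25-fold, limma q = 0.0396), with 0.29 in replication 1 and 0.40 in replication 2. At 8 hps the difference had the same size, 0.32 (SE 0.10, 95% interval 0.12 to 0.53), but was not called (limma q = 0.529). The unadjusted limma p was nearly the same, 0.00418 at 4 hps and 0.00435 at 8 hps. A q value also depends on the p-values of all probe sets, of which 22.4% and 5.35% were under 0.05. The IRF10 differences at 1 and 2 hps were -0.04 and 0.03.

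Setting endotoxin at 4 hps against the vehicle arrays of the other times left the IRF10 value nearly as it was. Such a comparison mixes treatment with time, here and for the other genes below. The mean of those 6 arrays was 8.75 ± 0.07 (SD), and the difference was 0.30 (95% interval 0.13 to 0.46), short of the call with limma q = 0.0728. In this comparison 1.35% of all probe sets were called and none of the 15. With the actin signal difference as a covariate, chosen after the data were seen, the difference at 4 hps was 0.00 (limma q = 0.753). This fit takes its actin slope from differences among arrays of the same dose and time. The actin difference itself did not overlap between treatments at 4 hps, so the adjusted value there is an extrapolation. Without the replication term the IRF10 difference at 4 hps was 0.33 with limma q = 0.118. The call was also lost when either vehicle array at 4 hps, any 1 of the endotoxin arrays at 4 hps, or endotoxin replication 3 at 1 or 2 hps was left out, with differences of 0.26 to 0.36.

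IRF1, which in mammals is induced by interferon gamma and bacterial products and activates interferon-stimulated genes, had its lowest mean at 1 hps under both treatments. In endotoxin-stimulated cells it was 8.94, 8.49 and 8.50 at 1 hps, 9.19, 8.83 and 8.88 at 2 hps, 8.81, 8.96 and 8.82 at 4 hps and 9.27, 9.09 and 9.02 at 8 hps. In vehicle-treated cells it was 8.68 and 8.28 at 1 hps, 8.96 and 8.88 at 2 hps, 9.07 and 8.72 at 4 hps and 8.82 at 8 hps in both arrays. Only at 8 hps did the treatments not overlap. There the difference was 0.35 (SE 0.11, 95% interval 0.11 to 0.60), with 0.45 and 0.27 in replications 1 and 2, and it was not called (limma q = 0.655). The fitted differences at 1, 2 and 4 hps were 0.21, 0.09 and 0.02, and the mean over 1, 2 and 8 hps was 0.22 (95% interval 0.07 to 0.36, limma q = 0.643).

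IRF7, which drives type I interferon transcription, showed no separation at any time. Its level ran from 7.90 to 8.38 over the 20 arrays, and its differences were -0.02, -0.04, 0.13 and 0.06 at 1, 2, 4 and 8 hps. The widest of the 4 intervals on the upper side reached 0.36.

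**Figure D2:**
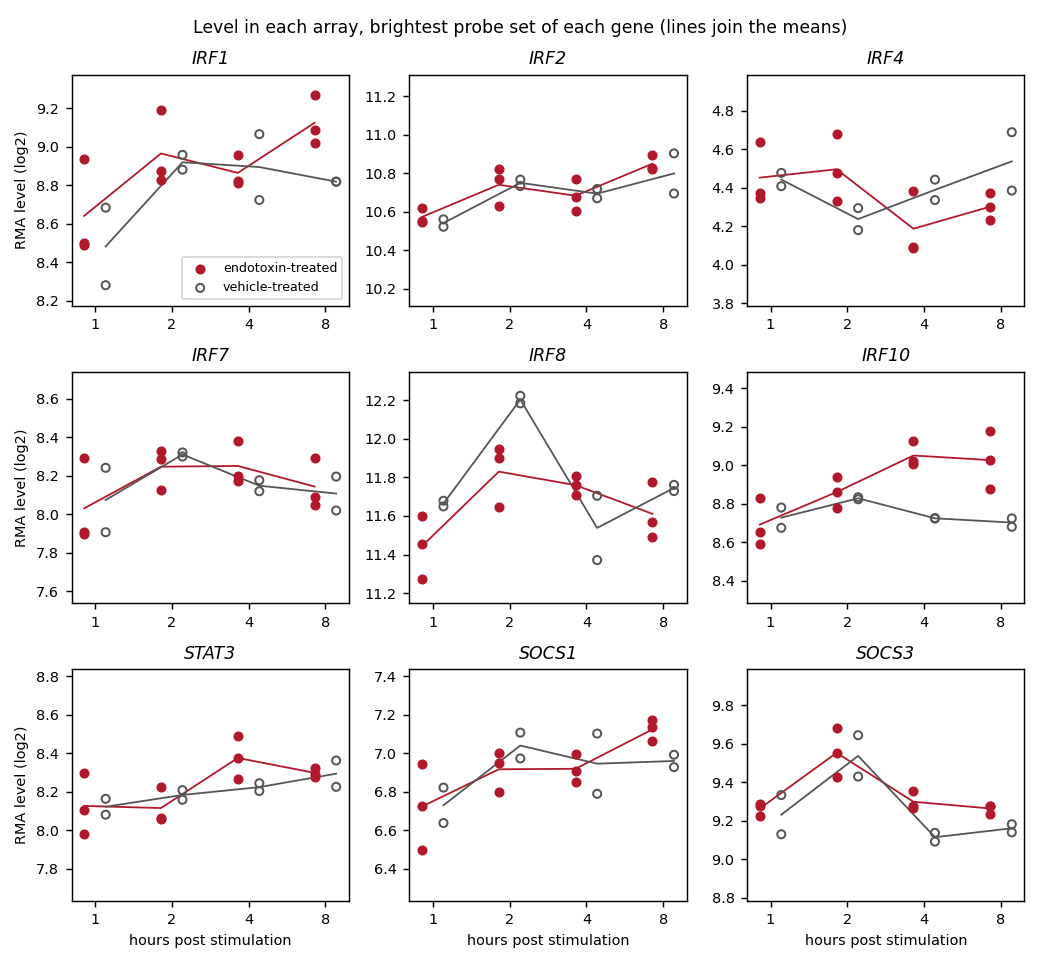
RMA level (log2, vertical axis, the same span in each panel) at 1, 2, 4 and 8 hps for the brightest probe set of each gene, with filled red points for endotoxin arrays, open grey points for vehicle arrays and lines through the means. IRF10 with endotoxin lies above vehicle at 4 and 8 hps, and IRF8 and SOCS3 are highest at 2 hps under both treatments.

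IRF2, an antagonist of IRF1 at shared sites in mammals, gave 4 readings that did not move together. The probe set Gga.3363.2.S1_a_at read 10.68, 10.28 and 10.29 at 4 hps in endotoxin-stimulated cells, against 9.94 and 9.99 in vehicle-treated cells. The means were 10.42 ± 0.23 with endotoxin (SD, n = 3) and 9.96 ± 0.04 with vehicle (SD, n = 2), and the fitted difference of 0.54 (SE 0.15, 1.45-fold, limma q = 0.0285) was 0.74 in replication 1 and 0.29 in replication 2. The groups did not overlap, and the vehicle arrays at 4 hps were the lowest of all vehicle arrays, the other 6 of which read from 10.03 to 10.68.

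Against those 6 vehicle arrays, which averaged 10.33 ± 0.24 (SD), the IRF2 difference at 4 hps was 0.17 (95% interval -0.08 to 0.42, limma q = 0.458). Differences at 1, 2 and 8 hps were 0.00, 0.10 and -0.02. The value at 1 hps joined opposite signs, -0.35 in replication 1 and 0.48 in replication 2. Without the replication term the 4 hps difference was 0.45 (limma q = 0.197). Leaving out vehicle replication 1 at 4 hps gave 0.44 (limma q = 0.22), leaving out vehicle replication 2 gave 0.63 (limma q = 0.0522), and leaving out endotoxin replication 1 or 3 at 4 hps gave 0.46 or 0.52, both short of the call.

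Gga.3363.3.S1_a_at followed the same course across arrays, with a Pearson r of 0.967 to Gga.3363.2.S1_a_at over the 20 arrays after replication means were removed. It read 8.71, 7.83 and 7.82 at 4 hps in endotoxin-stimulated cells and 7.67 and 7.68 in vehicle-treated cells, and its difference of 0.59 (SE 0.22) was not called (limma q = 0.0809). The brightest IRF2 probe set, Gga.3363.1.S1_at, read 10.60, 10.77 and 10.67 with endotoxin and 10.67 and 10.72 with vehicle at 4 hps, a difference of 0.01 (95% interval -0.15 to 0.17). Its r to the called probe set was 0.187. The dimmest, Gga.3363.3.S1_at, ran between 4.54 and 5.20 over the 20 arrays, with a difference of 0.26 at 4 hps that was not called (limma q = 0.177) and an r of 0.346. Endotoxin replication 1 at 4 hps was the highest of the 5 arrays of that time in the 3 dimmer IRF2 probe sets, and the lowest of the 5 in Gga.3363.1.S1_at.

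The singly named probe sets most like Gga.3363.2.S1_a_at over the 20 arrays, by the same correlation, were LOC415891 (r = 0.960), SPOPL (r = 0.960), ALCAM (r = 0.958), TET1 (r = 0.953) and ATXN2 (r = 0.951). Their differences at 4 hps were 0.58 to 1.18 against vehicle of that time and 0.21 to 0.33 against vehicle of 1, 2 and 8 hps, a description only, since likeness over these arrays chose them. The arrays shared by these correlations include those that stood apart.

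**Figure D3:**
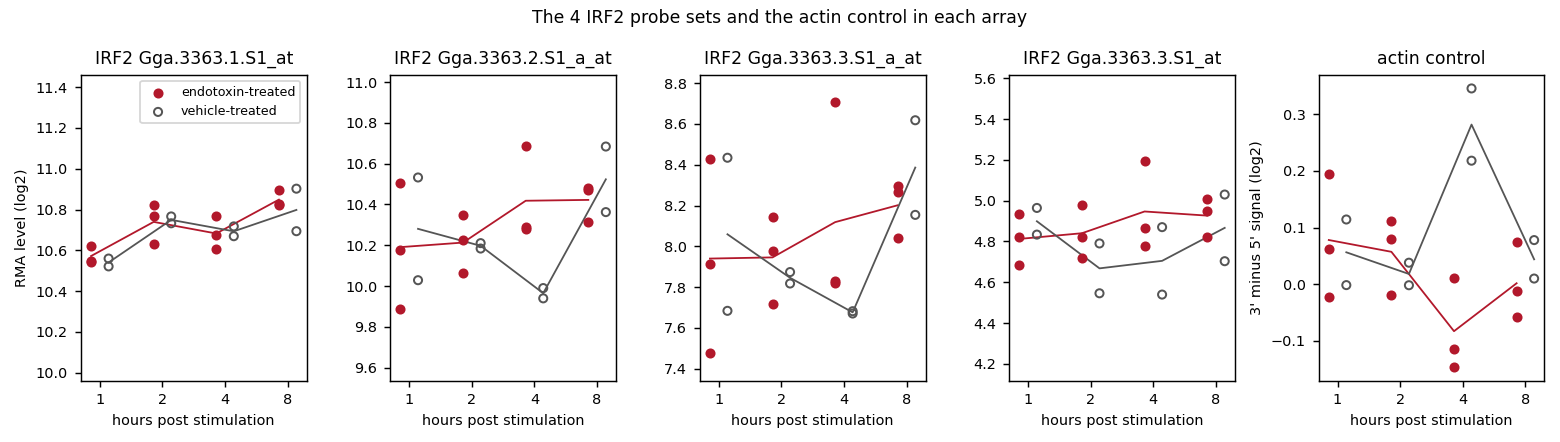
RMA level (log2) of the 4 IRF2 probe sets and, on the right, the 3′ minus 5′ signal difference of the actin control (log2) at 1, 2, 4 and 8 hps, with filled red points for endotoxin arrays and open grey points for vehicle arrays. The vehicle arrays at 4 hps are low in Gga.3363.2.S1_a_at (9.94 and 9.99), unremarkable in Gga.3363.1.S1_at (10.67 and 10.72) and high in the actin control (0.35 and 0.22).

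IRF8, a factor of the macrophage and B cell lineages, was bright and varied more with time than with treatment. In endotoxin-stimulated cells it read 11.60, 11.46 and 11.27 at 1 hps, 11.90, 11.95 and 11.65 at 2 hps, 11.71, 11.81 and 11.76 at 4 hps and 11.78, 11.49 and 11.57 at 8 hps. In vehicle-treated cells it read 11.68 and 11.65 at 1 hps, 12.22 and 12.18 at 2 hps, 11.37 and 11.71 at 4 hps and 11.73 and 11.76 at 8 hps. The vehicle arrays at 2 hps were the highest of all 20. At 1 and 2 hps every endotoxin array was below both vehicle arrays, and at 4 hps every one was above both.

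The IRF8 differences were -0.17 at 1 hps, -0.32 at 2 hps (95% interval -0.56 to -0.09), 0.27 at 4 hps (95% interval 0.04 to 0.51) and -0.08 at 8 hps, none of them called (limma q of 1, 1, 0.0981 and 0.996). Against vehicle of 1, 2 and 8 hps, which includes the high vehicle arrays of 2 hps (12.22 and 12.18), the 4 hps difference was -0.06. This change of sign cannot be told apart from the change of IRF8 over time with vehicle. Over the 35 alternative fits at 4 hps the IRF8 difference ran from -0.16 to 0.46 and was below 0 in 2. The mean over 1, 2 and 8 hps was -0.19 (95% interval -0.34 to -0.05, limma q = 0.764). IRF8 had the largest dose by time statistic of the 15 (F = 5.44, limma q = 0.226). No probe set on the array was called for dose by time, while 4 of the 15 (IRF2, IRF4, IRF8 and IRF10) and 11.5% of all probe sets had an unadjusted p under 0.05.

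IRF4, a lymphoid and myeloid lineage factor, was dim, between 4.09 and 4.69 over all arrays and below every array median. At 2 hps it read 4.68, 4.48 and 4.33 with endotoxin and 4.29 and 4.18 with vehicle, a difference of 0.31 (95% interval 0.07 to 0.55) that was not called (limma q = 1). At 8 hps the order was the other way, with 4.30, 4.37 and 4.23 with endotoxin and 4.39 and 4.69 with vehicle, a difference of -0.18 (95% interval -0.42 to 0.06).

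STAT3, which transmits interleukin-6 and interleukin-10 signals, was read by 4 probe sets whose differences lay between -0.21 and 0.19 at all 4 times. The brightest, Gga.8567.1.S1_at, read 8.37, 8.49 and 8.26 at 4 hps with endotoxin and 8.24 and 8.20 with vehicle, without overlap. The difference was 0.17 (95% interval -0.04 to 0.37, limma q = 0.198) and 0.19 (95% interval 0.02 to 0.36, limma q = 0.241) against vehicle of the other times. GgaAffx.20135.1.S1_at had the opposite sign at 4 hps, -0.21 (95% interval -0.42 to 0.00), with 7.46, 7.51 and 7.42 with endotoxin and 7.70 and 7.64 with vehicle. Gga.11154.1.S1_s_at, which ran between 3.96 and 4.32, differed by 0.19 at 8 hps (limma q = 0.847), and GgaAffx.20135.1.S1_s_at by at most -0.15, at 1 hps.

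SOCS1 and SOCS3 inhibit Janus kinases and cytokine receptors. SOCS3 read 9.28, 9.28 and 9.22 at 1 hps, 9.42, 9.55 and 9.68 at 2 hps, 9.27, 9.35 and 9.27 at 4 hps and 9.28, 9.24 and 9.28 at 8 hps in endotoxin-stimulated cells. In vehicle-treated cells it read 9.13 and 9.33 at 1 hps, 9.43 and 9.64 at 2 hps, 9.09 and 9.14 at 4 hps and 9.14 and 9.18 at 8 hps. Both treatments peaked at 2 hps, and at 4 and 8 hps every endotoxin array was above both vehicle arrays. The differences there were 0.17 (95% interval 0.00 to 0.35, limma q = 0.133) and 0.09 (95% interval -0.08 to 0.27, limma q = 0.996). Against vehicle of the other times, which includes the 2 hps peak, the 4 hps value was -0.02.

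SOCS1 read 7.14, 7.17 and 7.06 at 8 hps with endotoxin and 6.99 and 6.93 with vehicle, without overlap, and the difference was 0.17 (95% interval -0.08 to 0.42, limma q = 0.996). At the earlier times its treatments overlapped, with differences of 0.00, -0.12 and -0.02. Replications 1 and 2 had opposite signs at 1 hps (0.31 and -0.32) and at 4 hps (-0.19 and 0.21). Over the 15 probe sets the treatments did not overlap for 1, 2, 7 and 6 at 1, 2, 4 and 8 hps, which is 6.67%, 13.3%, 46.7% and 40%, against 16.4%, 20%, 31.4% and 20.2% of all probe sets. The 7 at 4 hps came from 5 genes, and probe sets of the same gene are not separate members.

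**Figure D4:**
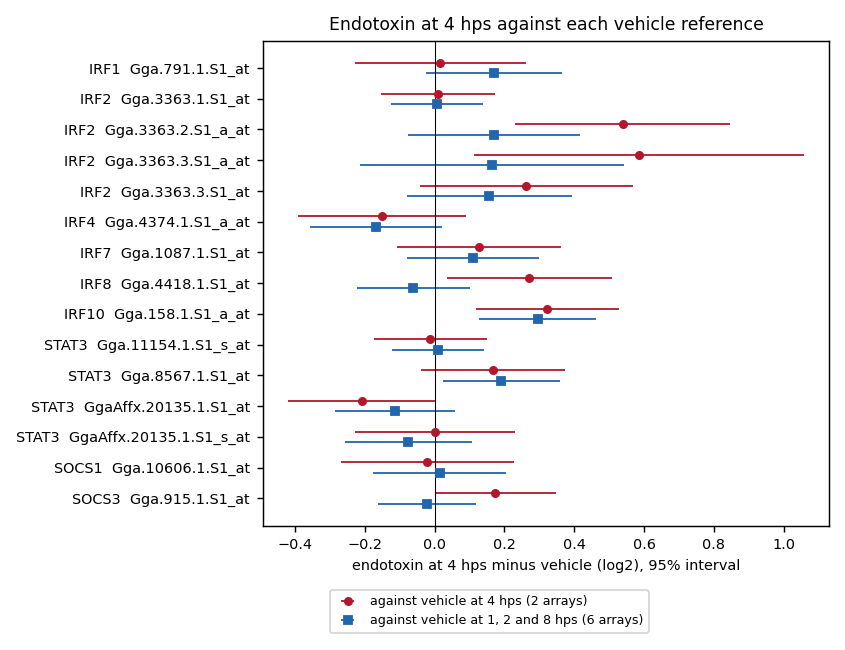
Endotoxin at 4 hps minus vehicle (log2, horizontal axis) with 95% intervals for each of the 15 probe sets, as red circles against the 2 vehicle arrays of 4 hps and as blue squares against the 6 vehicle arrays of 1, 2 and 8 hps. IRF10 has nearly the same value in both (0.32, and 0.30, which was not called), while IRF2 Gga.3363.2.S1_a_at (0.54 and 0.17), IRF8 (0.27 and -0.06) and SOCS3 (0.17 and -0.02) have not. The blue squares mix treatment with time.

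In endotoxin-stimulated cells 5 of 15 probe sets were called for change over time, against 10.9% of all probe sets: IRF1 (limma q = 0.0168), IRF10 (limma q = 0.0184), SOCS3 (limma q = 0.0195), IRF8 (limma q = 0.0327) and IRF2 Gga.3363.1.S1_at (limma q = 0.0366). In vehicle-treated cells 2 of 15 were called, IRF8 (limma q = 0.0107) and SOCS3 (limma q = 0.0186), against 7.55% of all probe sets. Without the vehicle arrays of 4 hps only IRF8 was called in vehicle-treated cells (limma q = 0.0174, 2.24% of all probe sets), with SOCS3 at limma q = 0.0547. Without endotoxin replication 3 at 1 and 2 hps none of the 15 was called for change over time with endotoxin, and IRF8 and SOCS3 were still called with vehicle. Without the replication term the counts were 1 with endotoxin (IRF10) and 1 with vehicle (IRF8).

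Several of these calls changed when a single array was left out. Each refit recomputes q, and the share of all probe sets called in it is not given here. The same holds for the fits above without endotoxin replication 3 or the replication term. Whether the changes were particular to these genes cannot be read from the counts. With endotoxin, the count was 2 without replication 2 at 1 hps (SOCS3 and, in place of the others, IRF2 Gga.3363.2.S1_a_at), 2 without replication 2 at 2 hps (IRF1 and IRF10) and 3 without replication 2 at 8 hps (IRF8, IRF10 and SOCS3). It was 1 without replication 3 at 1 hps (SOCS3) and 2 without replication 3 at 8 hps (IRF10 and SOCS3). With vehicle, leaving out replication 1 at 2 hps left SOCS3 alone, leaving out replication 2 at 2 hps left none, and leaving out replication 2 at 8 hps left IRF8 alone.

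IRF8 was higher at 2 hps than at 1 hps by 0.39 with endotoxin (95% interval 0.18 to 0.59) and by 0.54 with vehicle (95% interval 0.29 to 0.79). At 4 hps it differed from 2 hps by -0.07 with endotoxin (95% interval -0.28 to 0.14) and by -0.67 with vehicle (95% interval -0.92 to -0.41). SOCS3 was higher at 2 hps than at 1 hps by 0.29 with endotoxin and by 0.31 with vehicle, and lower at 4 hps than at 2 hps by values of -0.25 with endotoxin and -0.42 with vehicle, none of these intervals reaching 0. This 2 hps peak was therefore present in cells that received no endotoxin.

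IRF1 was higher at 2 hps than at 1 hps by 0.32 with endotoxin (95% interval 0.11 to 0.54) and by 0.44 with vehicle (95% interval 0.18 to 0.70). At 8 hps it exceeded 4 hps by 0.26 with endotoxin (95% interval 0.05 to 0.47), whereas with vehicle that step was -0.08 (95% interval -0.34 to 0.19). IRF10 exceeded its 2 hps level at 4 hps by 0.19 with endotoxin (95% interval 0.01 to 0.37), and with vehicle that step was -0.10 (95% interval -0.32 to 0.11). The dose by time test of neither gene was called (limma q = 0.51 for IRF1 and 0.278 for IRF10).

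The other genes of the pathway were taken from a list of 90, of which 64 were measured by their brightest singly named probe set. At 1 hps 1 was called, TRAF3, an adaptor that links Toll-like receptors to interferon production, and at 2 and 8 hps none was. Of all probe sets 0.0364%, 0.0859% and 0.159% were called at 1, 2 and 8 hps, so few calls among 64 genes say little. In the mean of 1, 2 and 8 hps TRAF3 alone was called, at 0.69 (limma q = 0.000544), beside 0.271% of all probe sets. At 4 hps it read 8.07, 8.02 and 8.03 with endotoxin and 7.46 and 7.31 with vehicle, a difference of 0.71 (limma q = 0.00918). It was the only gene of the list called at 4 hps against vehicle of 1, 2 and 8 hps, at 0.66 (limma q = 0.00627), beside 1.35% of all probe sets.

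At 4 hps against vehicle of that time 5 of the 64 were called higher and 4 lower, beside 4.95% and 3.13% of all probe sets. The higher ones were TRAF3, the interferon lambda receptor IL28RA (0.54), the IRF-activating kinase IKBKE (0.78), and the negative regulators PTPN2 (0.36), a phosphatase that acts on Janus kinases and STATs, and PIAS4 (0.28), an inhibitor of STATs. Against vehicle of the other times the difference was 0.28 for IL28RA, 0.18 for IKBKE, 0.07 for PTPN2 and -0.05 for PIAS4. None of these was called, where 1.35% of all probe sets were. PIAS4 with vehicle read 6.80 and 7.01 at 1 hps, 6.83 and 6.89 at 2 hps, 6.52 and 6.31 at 4 hps and 6.54 and 6.43 at 8 hps. Its change of sign cannot be told apart from its change over time with vehicle. IKBKE read 5.69, 6.08 and 5.73 at 4 hps with endotoxin and 4.63 and 5.68 with vehicle. Vehicle replication 1 was also the lower one for IL28RA (5.83, against 6.48 in replication 2) and PTPN2 (9.66, against 10.11). For TRAF3 and PIAS4 it was the higher one. The lower ones were USP18 (-0.45), which restrains the type I interferon receptor, and the ubiquitin ligase CBL (-0.45). Lower too were the interferon-stimulated genes EIF2AK2 (-0.36), the kinase PKR, and CMPK2 (-0.46). With any probe set of a gene counted, 6 genes were higher, IFNGR2 being added, and 5 lower. The brightest IFNGR2 probe set differed by -0.01.

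Of 20 measured interferon targets 0 were called higher and 2 lower at 4 hps, beside 4.95% and 3.13% of all probe sets. With any probe set of a gene counted, 3 were lower. The median of the 20 was -0.16, beside -0.02 over all probe sets, and -0.10 against vehicle of the other times. At 1, 2 and 8 hps no target was called, beside 0.0364%, 0.0859% and 0.159% of all probe sets. The medians of the 20 were -0.02, -0.04 and -0.01. USP18 read 11.80, 11.76 and 11.71 at 4 hps with endotoxin and 12.41 and 12.06 with vehicle, without overlap, and against vehicle of the other times its difference was -0.27 (limma q = 0.0935). EIF2AK2 read 7.33, 7.17 and 7.26 with endotoxin and 7.65 and 7.60 with vehicle at 4 hps, and against vehicle of the other times its difference was -0.02. CMPK2 read 6.13, 6.18 and 6.33 with endotoxin and 6.84 and 6.47 with vehicle at 4 hps. Its vehicle arrays of the other times read 6.21 to 6.92, and endotoxin replications 1 and 2 at 4 hps lay below all of them. For CBL the values at 4 hps were 5.78, 6.13 and 5.96 with endotoxin and 6.40 and 6.29 with vehicle. The CBL vehicle arrays of the other times read 6.01 to 6.36. Endotoxin replications 1 and 3 at 4 hps lay below all of those. None of the 4 Janus kinases, nor STAT5B, the single other STAT measured, was called between treatments at any time. The share of all probe sets called was highest at 4 hps, at 8.08%.

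Change over time was called for 15 of the 64 with endotoxin and for 10 with vehicle, beside 10.9% and 7.55% of all probe sets. TICAM1 and MYD88, the adaptors of Toll-like receptors, were called under both treatments (limma q of 0.000594 and 0.00504 with endotoxin, and of 0.00233 and 0.0086 with vehicle), as were the receptors IFNGR2 and OSMR and the regulators SOCS4, PIAS4 and USP18.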

How the data were processed

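RNA of HD11 cells was measured on 20 Affymetrix chicken arrays. Each deposited value is a log2 level that the authors made with RMA, which includes background correction and quantile normalization, so shifts common to all genes are removed. A deposited table of the authors' own comparisons (8 columns of log2 ratios and q values) was used only for the gene names of probe sets. limma 3.58.1 in R 4.3.3 was fitted to 38439 probe sets (96 array controls left out) with 8 groups of dose and time and replication as a term, with 10 residual degrees of freedom. q values came from the p-value histogram with 20 bins. Replication was a term in the study's model for the arrays and is one here. The methods mention different days for the RNA samples without tying them to array numbers. Without a fit, replication 1 minus replication 2 was taken for each treatment at each time. Over the probe sets, the endotoxin and vehicle differences correlated at -0.141, 0.236, 0.0684 and 0.113 at 1, 2, 4 and 8 hps. The code was tested on simulated data. Each of the 9 genes and all its probe sets are described. Pathway genes called between treatments were named, those called over time under both treatments were named after their values were seen, and the 5 nearest probe sets were taken for the member probe set of lowest q. Members, lists and tests were chosen with earlier results of these data known. The number of arrays limits the precision. Sequences and genome positions were not used here.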

Additional observations from a re-analysis of the deposited data

How the results depend on the processing

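At 1, 2 and 8 hps, in their mean and for dose by time, 0 of the 15 probe sets were called in limma under every alternative run for them (33 for the mean and 34 for each of the others). In the main fit 0.0364%, 0.0859% and 0.159% of all probe sets were called at 1, 2 and 8 hps. The share was 0.271% in their mean, and none was called for dose by time. A count of 0 among 15 thus says little about these genes. At 4 hps, where 2 were called, the count was 0 with no replicate block, with the replicate block as a random effect, with array weights, with only the arrays of 4 hps, against vehicle of 1, 2 and 8 hps, without endotoxin replication 3 at 1 and 2 hps, and with the actin difference as a covariate, and 1 with Benjamini-Hochberg adjustment or cyclic loess. Leaving out an array or a replication gave 0 to 3. For change over time with endotoxin, where 5 were called, the count was 1 with no replicate block, 3 with Benjamini-Hochberg adjustment, 8 with ribosomal protein centring, 0 without endotoxin replication 3 at 1 and 2 hps, 3 with the actin covariate, and 0 to 7 with an array or replication left out. For change over time with vehicle, where 2 were called, it was 1 with no replicate block, 4 with limma's trend and robust options, 5 among the 19219 brighter probe sets (12 of the 15 tested), 1 with vehicle at 4 hps left out, 1 with the actin covariate, and 0 to 3 with an array or replication left out. Leaving out vehicle replication 2 at 2 hps, or either whole replication with vehicle arrays, gave 0. The IRF2 call at 4 hps held in 22 of 35 alternatives and the IRF10 call in 16 of 35. Over all 35, called or not, the differences were 0.17 to 0.75 for IRF2 and 0.00 to 0.41 for IRF10, and neither changed sign. The settings that leave out endotoxin replication 3 at 1 and 2 hps and that add the actin covariate were chosen after seeing the data. At 4 hps the actin difference did not overlap between treatments, so the adjusted values of the covariate fit are extrapolations there. Each alternative recomputes q over the probe sets it tests, and the share of all probe sets called under it is not given here. Whether a change in count was particular to these genes therefore cannot be read from the counts. The cause of these changes was not tested.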
